A study of Mus musculus with 6 samples.

Results

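Nuclear factor κB (Nf-κB) is a family of transcription factors, and 10 genes of its core circuit were followed across M0505 and STOSE cells out of 20405 genes with a symbol on the array. The genes were chosen by name as 5 subunits (*Nfkb1*, *Nfkb2*, *Rel*, *Rela* and *Relb*), 2 inhibitors (*Nfkbia* and *Nfkbie*) and 3 kinases (*Chuk*, *Ikbkb* and *Ikbke*), with the brightest probe set read for each gene. Each of the 10 had 1 probe set, so the choice of probe set did not arise. M0505 is an established line of mouse ovarian surface epithelial cells of the FVB/N strain, used here at early passage. STOSE is the line that arose from M0505 by spontaneous transformation in long-term culture, with no added transgene named. Both lines were grown in the same medium, α-Minimal Essential Medium with fetal calf serum, EGF, ITSS and antibiotics. Each is a single line from a single lineage, so a difference between them need not hold for other ovarian surface epithelial lines. Total RNA of 3 samples per line, called biological replicates in the labels, was read on Affymetrix Mouse Gene 1.0 ST GeneChips as log2 values after robust multi-array average (RMA) normalization. How the replicates were grown apart is not given, so the p-values measure the spread between these arrays.

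In a resting cell the Nf-κB dimers are held in the cytoplasm by inhibitory IκB proteins. Receptors for tumor necrosis factor, interleukin-1 and microbial products activate the IκB kinase (IKK) complex, in which the kinases IKKα and IKKβ sit on the scaffold NEMO. The kinases mark IκB for destruction, and the freed dimers enter the nucleus. A slower route through the kinase NIK and IKKα cuts the p100 precursor to p52. Several members of the circuit, among them *Nfkb1*, *Nfkb2*, *Rel* and *Nfkbia*, are textbook target genes of the factor they encode or restrain. In ovarian epithelium and its tumors the pathway is known for cytokine, chemokine and survival gene control.

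Binding of the factor to DNA is read from the κB consensus motif, and the promoter stretches of 5 members are printed to show where these letters lie. They are the 4 genes with a match and *Ikbke*. RefSeq promoter windows (GRCm38.p6, 250 bases before to 50 after an annotated start) were at hand for 7 of the 10 genes. *Nfkb1*, *Relb* and *Ikbkb* had no entry. The κB consensus (GGG, a purine, any base, A or T, 2 pyrimidines, CC) was searched on both strands and overlapping matches were joined. It was present in 4 of the 7 genes, *Nfkb2*, *Rel*, *Nfkbia* and *Nfkbie*, and was not found in the windows of *Rela*, *Chuk* and *Ikbke*. Of all 32851 windows of the same length, 4.51% held the motif, and 5.14% of genes had it in at least 1 window. The sequences below run 5′ to 3′ along the strand of the gene and end at the base before the start, with the matched motif in capitals. *Nfkb2* is shown by its window furthest upstream, which has 2 stretches. *Ikbke*, the gene called lower, is given for comparison and has no capitals. *Rela* and *Chuk*, not printed, also had no match and were slightly higher in STOSE cells (log2 fold changes 0.15 and 0.22). *Ikbkb*, the other lower member, could not be searched. The presence of a match thus did not separate the higher members from the lower ones.

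Nfkb2 (chr19:46304487-46304736, + strand): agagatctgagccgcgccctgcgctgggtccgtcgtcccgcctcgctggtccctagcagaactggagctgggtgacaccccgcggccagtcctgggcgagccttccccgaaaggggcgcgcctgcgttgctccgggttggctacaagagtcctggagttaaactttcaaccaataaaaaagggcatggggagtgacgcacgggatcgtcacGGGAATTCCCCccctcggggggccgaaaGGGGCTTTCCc

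Rel (chr11:23770970-23771219, - strand): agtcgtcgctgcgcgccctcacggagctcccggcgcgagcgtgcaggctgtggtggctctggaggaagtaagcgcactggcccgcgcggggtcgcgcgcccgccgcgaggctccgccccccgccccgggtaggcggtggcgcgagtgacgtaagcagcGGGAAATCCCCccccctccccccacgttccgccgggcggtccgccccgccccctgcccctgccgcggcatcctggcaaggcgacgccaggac

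Nfkbia (chr12:55492648-55492897, - strand): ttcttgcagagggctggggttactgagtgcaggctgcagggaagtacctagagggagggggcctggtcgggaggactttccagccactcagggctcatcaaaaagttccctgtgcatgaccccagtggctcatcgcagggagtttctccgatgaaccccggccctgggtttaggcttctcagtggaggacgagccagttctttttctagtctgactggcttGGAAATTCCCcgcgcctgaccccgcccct

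Nfkbie (chr17:45555450-45555699, + strand): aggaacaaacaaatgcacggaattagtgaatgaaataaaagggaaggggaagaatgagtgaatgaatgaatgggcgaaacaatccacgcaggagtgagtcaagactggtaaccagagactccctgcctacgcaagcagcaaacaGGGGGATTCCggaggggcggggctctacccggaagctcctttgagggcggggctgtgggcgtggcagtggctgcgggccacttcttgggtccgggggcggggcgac

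Ikbke (chr1:131279564-131279813, - strand): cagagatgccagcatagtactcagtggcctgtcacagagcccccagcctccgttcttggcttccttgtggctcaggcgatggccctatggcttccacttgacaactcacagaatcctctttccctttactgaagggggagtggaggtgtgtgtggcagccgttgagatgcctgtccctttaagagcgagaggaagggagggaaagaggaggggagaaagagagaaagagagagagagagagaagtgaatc

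In *Nfkb2* the matched stretches began 39 and 11 bases before the start, and its other 2 windows held matches too, of which 1 lies in the overlap of both and was thus counted in each. The match began 92 bases before the start in *Rel*, 29 bases in *Nfkbia* and 106 bases in *Nfkbie*. A match is a description of the letters and does not show that the factor is bound there. A missing match does not show that a site is absent, since sites with other letters or outside the window are not found.

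**Figure D1:**
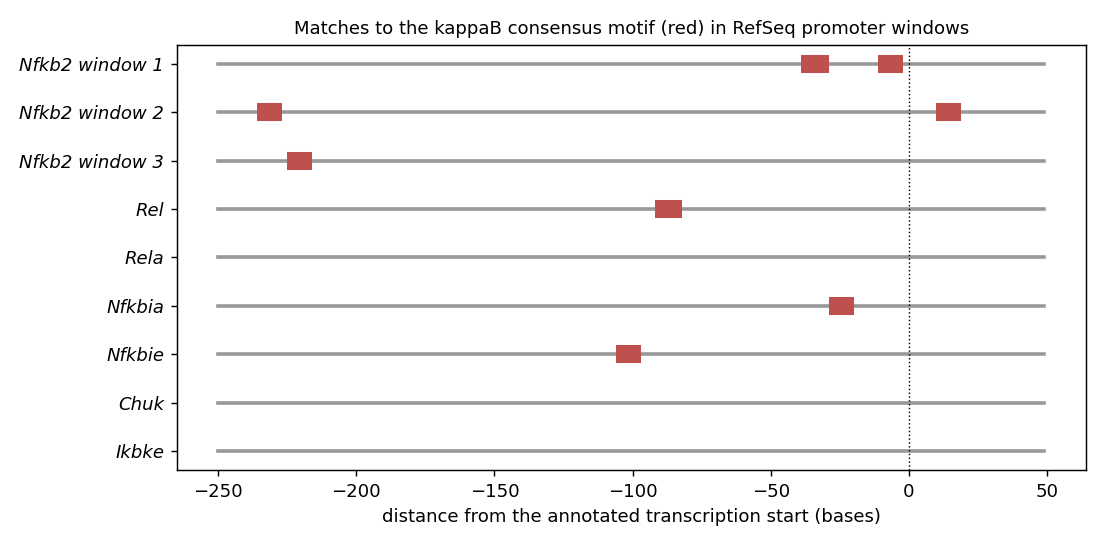
Matches to the κB consensus motif (red) in the RefSeq promoter windows of the members, with the distance from the annotated start in bases on the horizontal axis and 1 line per window. The windows of *Nfkb2*, *Rel*, *Nfkbia* and *Nfkbie* hold matches, and those of *Rela*, *Chuk* and *Ikbke* hold none.

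To judge the genes against the arrays as a whole, a gene was called changed at a limma adjusted p under 0.05 (Benjamini-Hochberg over all 20405 genes) and a linear fold change of at least 2. By this rule 1000 genes rose and 1548 fell in STOSE cells, which is 4.9% and 7.59% of all genes. With each array centred on its median, which raised the median log2 fold change of all genes from 0.08 to 0.28, 1466 rose and 1177 fell. With centring per chromosome, which raised it to 0.19, 1233 rose and 1226 fell. Both scalings moved the typical gene upward, which adds to the rises and takes from the falls. The adjusted p alone was passed by 56.5% of genes, and the arrays of the lines did not overlap in 64.6%, so passing either of these is common in this comparison. Pearson's r across genes, which are not independent replicates, was 0.997 to 0.999 within a line and 0.943 at its lowest between the lines. Of 10 ovarian surface epithelium markers, 9 stood above background in at least 1 line, where background is the 95th percentile of 1134 olfactory receptor probe sets, a log2 value of 4.72. The exception was *Lhx9*. Of the 10, 4 fell in STOSE cells, *Krt8* and *Krt19* to log2 means of 6.82 and 5.61, and at the adjusted p alone 8 were lower and 0 higher. *Wt1*, *Upk3b* and *Msln*, with log2 fold changes of −0.63, −0.34 and −0.61, were among the 8 and still read 10.76, 11.91 and 10.52 in STOSE cells. Of 12 leukocyte markers 9 lay below background in both lines, the pan-leukocyte gene *Ptprc* and the macrophage receptor gene *Csf1r* among them, and the summed linear level of the list was 946 to 1196 in M0505 and 366 to 389 in STOSE arrays. *Cd68* was the leukocyte marker that fell (log2 mean 9.78 to 6.96). Of 8 endothelial markers 2 lay below background in both lines, *Kdr* fell from 9.58 to 4.41, and the summed level was 946 to 1035 and 239 to 264. Of 8 granulosa and steroidogenic markers 4 lay below background in both lines, *Star* fell from 11.34 to 5.37 and *Inha* from 9.61 to 5.68, and the summed level was 3532 to 3575 and 261 to 271. Of 7 fibroblast and stroma markers 2 lay below background in both lines, *Thy1* rose 2.81-fold and *Col1a2* fell 5.48-fold, and the summed level was 5063 to 5431 and 5012 to 5226. Some of these markers differed between the lines and others did not. The adjusted p was not passed by 8 of 12 leukocyte, 4 of 8 endothelial, 2 of 8 granulosa and steroidogenic and 2 of 7 stroma markers. In M0505 cells the summed levels of the first 3 of these lists came mostly from *Cd68*, from *Kdr*, and from *Star* with *Inha*. The part of the markers in the results was not tested. In bulk RNA, fewer cells of a type and less RNA per cell cannot be told apart.

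Among the 10 genes, *Nfkb1* and *Nfkb2* rose about 2-fold in STOSE cells and *Ikbke* fell 2.66-fold. The precursor subunits were thus higher while a kinase of the IKK family was lower. *Rel*, *Nfkbie*, *Nfkbia*, *Chuk*, *Relb* and *Rela* were higher by less than 2-fold, and *Ikbkb* was lower by less than 2-fold. In counts, 2 of 10 were called higher, against 4.9% of all genes, and 1 of 10 was called lower, against 7.59%. At the adjusted p alone 8 were higher, against 31.6% of all genes, and 2 were lower, against 24.8%. The arrays of the lines did not overlap in 9 of the 10, against 64.6%, with STOSE above in 7, against 37.6%, and below in 2, against 27%. The median log2 fold change of the 10 was 0.30, against 0.08 over all genes, and the median size of the change was 0.60 against 0.25. All 10 lay above background in both lines, and none changed sign in any of 16 alternative fits.

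**Figure D2:**
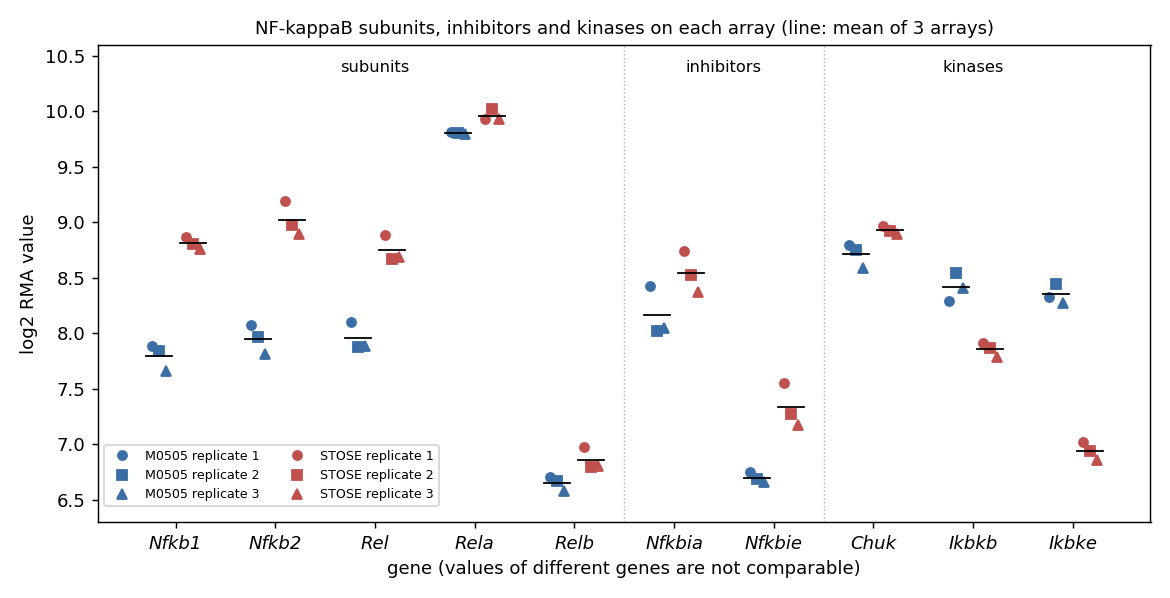
Log2 RMA value of each gene on each of the 6 arrays (blue, M0505; red, STOSE; symbol, replicate; line, mean of 3 arrays), ordered as subunits, inhibitors and kinases. The arrays of the lines are apart in every gene but *Nfkbia*, and *Ikbke* and *Ikbkb* are the genes with STOSE below M0505. Levels of different genes come from different probes and are not comparable.

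Of the subunits, the p105 and p100 precursor genes showed the largest rises. *Nfkb1* encodes p105, from which the p50 subunit is made. Its log2 values were 7.89, 7.84 and 7.66 on the M0505 arrays and 8.87, 8.80 and 8.76 on the STOSE arrays. All STOSE arrays lay above all M0505 arrays, with a gap of 0.87 between the nearest pair. The mean rose from 7.80 ± 0.12 (SD, n = 3) to 8.81 ± 0.05 (SD, n = 3), which is 2.02-fold. The log2 difference of 1.02 had a standard error of 0.07 and a limma adjusted p of 7.49e-06. By size this was rank 964 among all genes ordered from the largest rise.

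*Nfkb2* encodes p100, which serves as an inhibitor when whole and yields p52 when cut. Its log2 values were 8.08, 7.97 and 7.81 in M0505 cells and 9.19, 8.97 and 8.89 in STOSE cells. The lines were again apart, with STOSE replicate 1 the highest array. The mean rose 2.09-fold (log2 difference 1.07, 95% confidence interval 0.84 to 1.29, limma adjusted p = 2.72e-05), rank 868 among the rises. Both calls sit just inside the 2-fold limit: without M0505 replicate 3 the log2 fold changes were 0.95 for *Nfkb1* and 0.996 for *Nfkb2*, and without STOSE replicate 1 they were 0.99 and 0.98, so 0 of the 10 genes were then called higher.

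*Rel* encodes c-Rel, a transactivating subunit best known from lymphocytes. Its log2 values were 8.10, 7.88 and 7.89 in M0505 cells and 8.89, 8.67 and 8.69 in STOSE cells, and the lines did not overlap. The difference of 1.73-fold (0.79 ± 0.09 on the log2 scale, SE, limma adjusted p = 8.59e-05) was under the limit, and 7.3% of all genes had a larger log2 fold change. With each array centred on its median the log2 fold change of *Rel* was 0.99, still under 2-fold.

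*Rela* and *Relb*, which encode the main transactivating subunit of the fast route and the partner of p52 in the slow route, differed little between the lines. *Rela* read 9.82, 9.81 and 9.80 in M0505 cells and 9.93, 10.02 and 9.93 in STOSE cells. The STOSE arrays were all higher, by a gap of 0.11. They exceeded M0505 by 1.11-fold (log2 difference 0.15, 95% confidence interval 0.02 to 0.28, limma adjusted p = 0.0472). *Relb* read 6.71, 6.68 and 6.58 against 6.98, 6.79 and 6.81, with a gap of 0.09 between the lines. The difference was 1.15-fold (log2 difference 0.21, 95% confidence interval 0.04 to 0.37, limma adjusted p = 0.0386). The p stayed under 0.05 in 9 of 16 alternative fits for *Rela* and in 10 of 16 for *Relb*, with highest values of 0.161 and 0.125. These p are adjusted in all alternatives except 1, the methods' t-test without adjustment. The interval of *Rela* lay below those of *Nfkb1* and *Nfkb2*, although the difference between these changes was not itself tested.

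**Figure D3:**
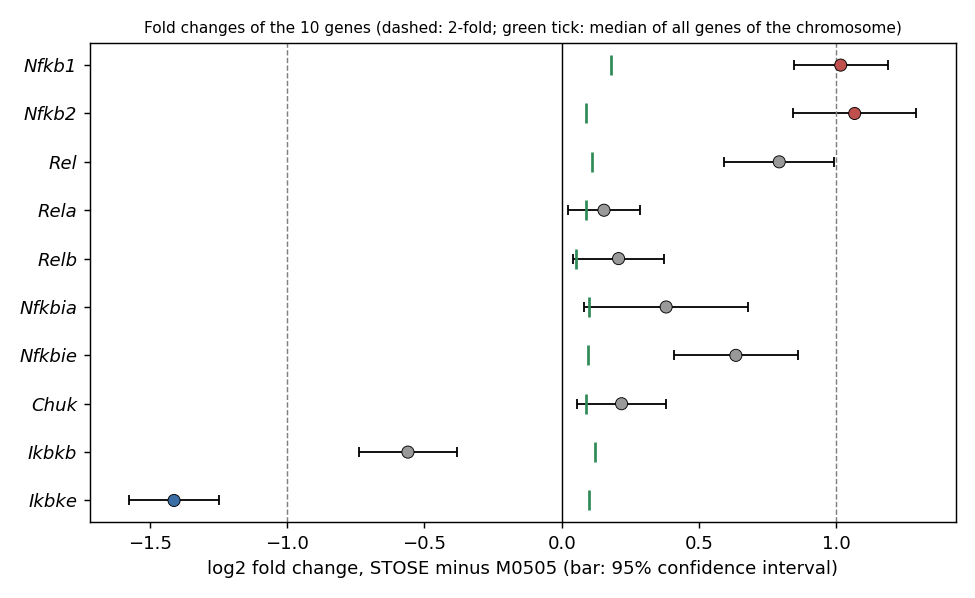
Log2 fold change of STOSE over M0505 cells for the 10 genes, with 95% confidence intervals from limma (red, called higher; blue, called lower; grey, not called), the 2-fold limits as dashed lines and the median of all genes of the same chromosome as a green tick. *Nfkb1* and *Nfkb2* lie at the upper 2-fold limit, *Ikbke* lies beyond the lower one, and the ticks run from 0.05 to 0.18.

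The inhibitor genes were both higher in STOSE cells by less than 2-fold. *Nfkbie* encodes IκBε, an inhibitor that is made again after activation and restrains dimers holding RelA and c-Rel. It read 6.75, 6.69 and 6.66 in M0505 cells and 7.56, 7.27 and 7.18 in STOSE cells. The lines did not overlap, and STOSE replicate 1 stood above the other STOSE arrays. The mean was 1.55-fold higher (0.63 ± 0.10 on the log2 scale, SE, limma adjusted p = 6.42e-04). *Nfkbia* encodes IκBα, the fast feedback inhibitor, and read 8.42, 8.02 and 8.05 in M0505 cells and 8.74, 8.52 and 8.37 in STOSE cells. Here the lines overlapped, since M0505 replicate 1 lay above STOSE replicate 3. STOSE cells exceeded M0505 cells by 1.30-fold (log2 difference 0.38, 95% confidence interval 0.08 to 0.68, limma adjusted p = 0.0349), and the p was under 0.05 in 10 of 16 alternative fits, with values up to 0.137. Leaving out single arrays gave log2 differences of *Nfkbia* from 0.28 to 0.51, the highest of them without M0505 replicate 1.

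Of the kinase genes, *Ikbke* was called and *Chuk* and *Ikbkb* were not. *Chuk* encodes IKKα, which serves both routes, and read 8.79, 8.75 and 8.59 in M0505 cells and 8.97, 8.93 and 8.89 in STOSE cells. The STOSE arrays were all higher, by a gap of 0.10. The difference was 1.16-fold (log2 difference 0.22, 95% confidence interval 0.06 to 0.38, limma adjusted p = 0.0276, up to 0.0889 over the alternative fits). *Ikbkb* encodes IKKβ, the kinase that marks IκBα in the fast route, and read 8.29, 8.55 and 8.41 in M0505 cells against 7.91, 7.87 and 7.79 in STOSE cells. All STOSE arrays lay below all M0505 arrays. The mean was 1.47-fold lower (−0.56 ± 0.08 on the log2 scale, SE, limma adjusted p = 3.37e-04).

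*Ikbke* encodes IKKε, a relative of the IKK kinases that also acts in antiviral interferon signaling and is known as an oncogene in breast cancer. It read 8.33, 8.44 and 8.28 in M0505 cells and 7.02, 6.94 and 6.86 in STOSE cells. The gap of 1.26 between the nearest arrays of the lines was the widest of the 10 genes. The mean fell from 8.35 ± 0.09 (SD, n = 3) to 6.94 ± 0.08 (SD, n = 3), which is 2.66-fold (limma adjusted p = 9.03e-07) and rank 901 among the falls of all genes. Its log2 fold change lay between −1.45 and −1.21 in all 16 alternative fits, each of them past 2-fold.

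The members lie on 8 chromosomes by the RefSeq genes of GRCm38.p6, and *Nfkb2*, *Rela* and *Chuk* share chromosome 19. The study karyotyped both lines and found aneuploidy in each, with most STOSE cells near-triploid. It reported loss of chromosomes 3 (*Nfkb1*) and 8 (*Ikbkb*) in both lines. In M0505 cells it also reported loss of chromosome 12 (*Nfkbia*) and a terminal deletion of chromosome 1 (*Ikbke*). What these changes contribute to the members was not tested. The median of each chromosome was read beside its genes. The median log2 fold change of all genes of these chromosomes was between 0.05 (chromosome 7, *Relb*) and 0.18 (chromosome 3, *Nfkb1*). On chromosome 19, with a median of 0.09 over 687 genes, the log2 fold changes of its 3 members were 1.07, 0.22 and 0.15. When every array was centred on its median level for each chromosome, *Nfkb1* had a log2 fold change of 1.04, *Nfkb2* of 1.20 and *Ikbke* of −1.40. The calls of these 3 genes were as before. This centring uses median levels and not the median fold changes given above. Subtracting those, 0.18 for *Nfkb1* and 0.09 for *Nfkb2*, was not done. It would take both genes, at log2 fold changes of 1.02 and 1.07, under the 2-fold limit.

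Within each line the members shared their high and low arrays. STOSE replicate 1 was the highest STOSE array in 9 of the 10 genes, against 40.9% of all genes, and the exception was *Rela*. M0505 replicate 1 was the highest M0505 array in 8 of 10, against 36.5% of all genes, with *Ikbkb* and *Ikbke* as exceptions. At the other end, replicate 3 was the lowest array in 7 members in M0505 cells and in 8 in STOSE cells, against 37.4% and 38.4% of all genes. These shifts were small beside the whole called differences, but not beside the margin of *Nfkb1* and *Nfkb2* over the 2-fold limit. Leaving out STOSE replicate 1 or M0505 replicate 3 took both of these calls away. No test was run on the shared high and low arrays. The median deviation from the line mean was 0.10 on STOSE replicate 1 and −0.07 on M0505 replicate 3, and the largest was 0.26 for *Nfkbia* on M0505 replicate 1.

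**Figure D4:**
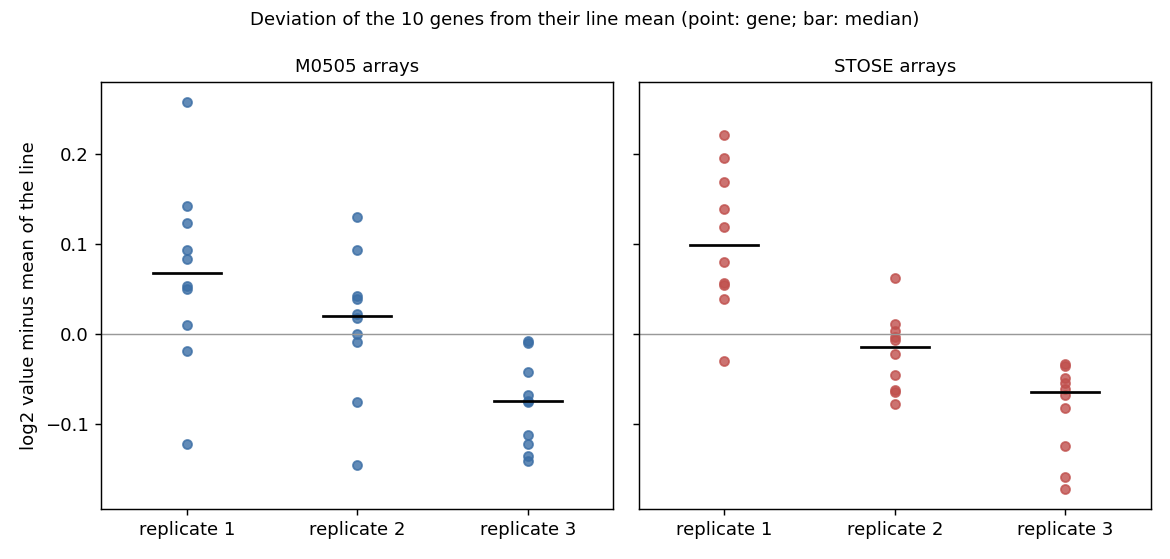
Deviation of each of the 10 genes from the mean of its line on the log2 scale, by array (points, genes; bars, medians), with M0505 arrays on the left and STOSE arrays on the right. The median lies above 0 on replicate 1 and below 0 on replicate 3 in both lines.

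The other genes of the pathway were read from 7 lists with 140 genes on the array. Of these, 13 rose and 18 fell, against 4.9% and 7.59% of all genes. At the adjusted p alone 46 were higher and 46 were lower, against 31.6% and 24.8% of all genes. These shares of all genes are also the ones to set beside the counts of each list below. The balance of the called genes turned under the scalings that raised the median log2 fold change of all genes. There were 15 higher and 13 lower with each array centred on its median, and 16 and 13 with centring per chromosome. Quantile normalized again, 14 were higher and 16 lower. The median log2 fold change of the 140 genes was 0.06, close to the 0.08 of all genes. Changes in both directions were found in 5 of the 7 lists.

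**Figure D5:**
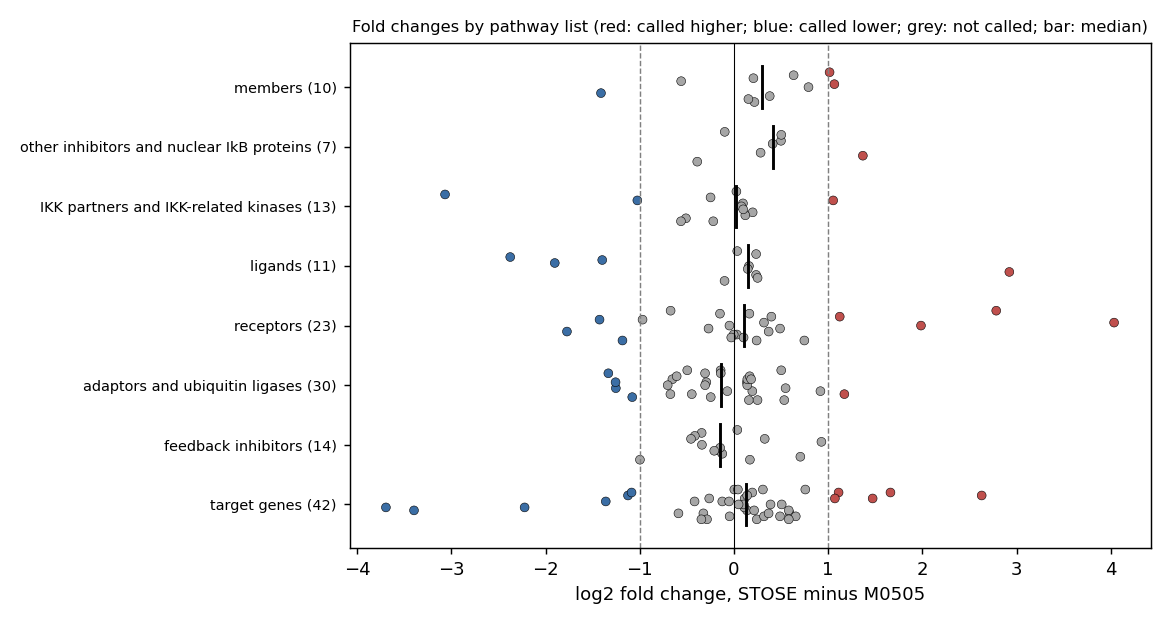
Log2 fold change of STOSE over M0505 cells for the 10 members and the genes of 7 pathway lists (points, genes; red, called higher; blue, called lower; grey, not called; bars, list medians), with 2-fold limits as dashed lines and the number of genes in brackets. Genes below background in 1 line are drawn at their measured difference. Called genes lie on both sides in each list except the feedback inhibitors, which have none, and the other inhibitors and nuclear IκB proteins, which have 1 on the upper side.

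Of 7 other inhibitors and nuclear IκB proteins, 1 rose and none fell, and 5 were higher and 1 lower at the adjusted p alone. *Nfkbiz*, which encodes the nuclear protein IκBζ, rose from 6.46 ± 0.07 (SD, n = 3) to 7.83 ± 0.09, which is 2.58-fold (limma adjusted p = 1.03e-06). *Nfkbib*, which encodes the classical inhibitor IκBβ, was higher by 1.22-fold (adjusted p = 0.00223 from limma). The gene lower at the adjusted p was *Bcl3*, which encodes a nuclear IκB protein (log2 means 9.89 and 9.50, limma adjusted p = 0.00606), so the list did not move one way.

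Of 13 IKK partners and related kinases, 1 rose and 2 fell. *Ikbkg*, the gene of the IKK scaffold NEMO on the X chromosome, had 8.13 ± 0.10 in M0505 and 7.11 ± 0.09 in STOSE cells and fell 2.04-fold (limma adjusted p = 7.05e-06). That call lay close to 2-fold and was lost in 5 of the 16 alternative fits, with log2 fold changes of −0.83 with each array centred on its median and −0.70 with centring per chromosome. *Tbk1*, which encodes the closest relative of IKKε, was lower by 1.48-fold (log2 fold change −0.56, adjusted p = 5.81e-04 from limma). With centring per chromosome the log2 fold change of *Tbk1* was −0.07 (adjusted p = 0.463 from limma), so that difference was not found under this scaling. This centring takes median levels on each array, not median fold changes. The median log2 fold changes of chromosome X (*Ikbkg*) and chromosome 10 (*Tbk1*) were 0.01 and −0.05, so both genes shifted by more than these. *Optn*, an adaptor that binds TBK1 and NEMO, fell 8.38-fold, from 8.04 ± 0.05 to 4.98 ± 0.12 (adjusted p = 1.76e-08 from limma), and *Tbkbp1*, another TBK1 adaptor, rose 2.08-fold, with a log2 fold change of 0.97 without M0505 replicate 1. *Map3k14*, the gene of NIK, did not pass, at 6.98 ± 0.23 and 7.18 ± 0.24 (limma adjusted p = 0.275).

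Among 11 ligands on the array, 1 rose and 3 fell. *Il1a*, an alarm cytokine, had a log2 mean of 3.49, below background, in M0505 cells and rose at least 3.24-fold to 6.42. Here and for other genes below background in 1 line, the fold is a bound against the background level of 4.72. The interleukin genes *Il33* and *Il18* fell 3.74-fold and 2.64-fold, and *Tnfsf13b*, which encodes the B cell factor BAFF, fell 5.19-fold by the brighter of its 2 probe sets (log2 fold change −2.37, and −1.25 with the mean of both). *Tnf* lay below background in both lines, at 4.38 ± 0.06 and 4.54 ± 0.03.

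Of 23 receptors, 4 rose and 3 fell. Toll-like receptor genes stood on both sides. *Tlr7*, a sensor of single-stranded RNA, rose at least 10.1-fold, from 4.02 ± 0.05 to 8.06 ± 0.08, and *Tlr6*, a partner of TLR2, rose at least 3.30-fold, both from below background in M0505 cells. *Tlr4*, the endotoxin receptor, fell 2.69-fold, and *Tlr3*, a sensor of double-stranded RNA, fell 2.27-fold (log2 fold change −1.18, and −0.98 with each array centred on its median). *Tnfrsf11a*, the gene of RANK, rose 3.96-fold, and *Edar*, the ectodysplasin receptor, fell 3.42-fold. Each of the 6 called receptors other than *Tlr1* had an adjusted p of 3.24e-06 or less from limma.

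Of 30 adaptors and ubiquitin ligases, 1 rose and 4 fell, and 14 were lower and 8 higher at the adjusted p alone. *Irak1*, a kinase below the interleukin-1 and Toll-like receptors, fell 2.52-fold, *Traf3ip2*, the interleukin-17 receptor adaptor, fell 2.39-fold, and *Malt1*, the protease of the antigen receptor route, fell 2.38-fold. *Irak3*, a brake on the same receptors, fell 2.11-fold. *Traf5* rose 2.25-fold, with a log2 fold change of 0.94 without STOSE replicate 1. The calls of *Irak3* and *Traf3ip2* were lost with centring per chromosome, at log2 fold changes of −0.59 and −0.77. Both lie on chromosome 10, whose median log2 fold change was −0.05, smaller than the step this centring made. The call of *Irak3* was also lost with each array centred on its median (−0.88) and quantile normalized again (−0.99). None of the 14 feedback inhibitors was called in either direction by limma. Among them 3 were higher and 6 lower at the adjusted p alone, and log2 fold changes ran from −0.998 to 0.93.

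Of 42 target genes, 5 rose and 6 fell, and 18 were higher and 10 lower at the adjusted p alone. *Mmp3*, among the rises, lay below background in both lines (3.60 ± 0.11 and 4.71 ± 0.08), so its fold is not reliable. *Ccnd1*, the gene of cyclin D1, rose 6.19-fold, and *Csf1*, the macrophage growth factor gene, rose 2.78-fold. *Ccl20*, a chemokine gene, rose 3.16-fold from 4.86 ± 0.05, just above background, to 6.52 ± 0.67. Its STOSE arrays were spread widely, at 7.30, 6.19 and 6.08. In the other direction *Icam1*, a leukocyte adhesion receptor gene, fell 12.9-fold from 9.55 ± 0.13 to 5.85 ± 0.14 (limma adjusted p = 2.21e-08). *Saa3*, an acute phase gene, fell 10.5-fold with a wide spread in STOSE cells (6.45 ± 1.01), and *Plau*, the gene of urokinase, fell at least 3.55-fold to a level below background. The κB consensus was in a promoter window of 11 of the 30 target genes that had one (36.7%), *Ccl20* and *Csf1* among them and *Icam1* and *Saa3* not. The lack of a match to this strict pattern does not show that *Icam1* or *Saa3* has no κB site. Over all genes on the array, the median log2 fold change was 0.06 for the 885 with the motif and 0.07 for the 14588 with a window and no motif.

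Beside *Ikbke*, the study tied *Ccnd1*, *Spp1* and *S100a4* to the pathway. *Spp1*, which encodes the secreted protein osteopontin, rose 7.07-fold and *S100a4*, which encodes a calcium-binding protein, rose 5.13-fold. These 4 were picked from these arrays by the study, so their directions here are not independent evidence. The study also measured them by quantitative RT-PCR in other samples, which were not analysed here. *Ikbke* is the gene among them that fell.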

How the data were processed

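RNA of M0505 cells (3 arrays) and STOSE cells (3 arrays) was labelled with biotin and read on Affymetrix Mouse Gene 1.0 ST GeneChips. The authors deposited 1 table of log2 values made by RMA in Affymetrix Expression Console (tools per the submitters' processing notes). RMA subtracts background, makes the arrays' distributions alike by quantile normalization and gives 1 value per probe set. Their versions, the annotation release and the genome build are not given in the sources used here. The table also holds the authors' means per line, which equalled the recomputed means to within 3.33e-09, and their linear fold change, which was not used. No column of values was left over. Because values are quantile normalized, a change of the same size in most genes could not be seen.

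Of 28944 probe sets, 23530 carried a symbol, and each of 20405 genes was represented by its brightest probe set (mean of the 6 arrays). STOSE minus M0505 was tested with limma 3.58.1 (lmFit, eBayes) under R 4.3.3, without covariates and with Benjamini-Hochberg adjustment over all genes. The code was checked on simulated data. Arrays have no read depth, and 3 against 3 arrays limit the precision. A two-sided exact permutation test could not give a p below 0.1, so none is reported.

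The members and lists were chosen with earlier results of these data known. Named are the 10 members, the genes the study ties to the pathway, at most 6 called genes of each list whose arrays do not overlap, and *Ikbkg*, *Tbk1*, *Nfkbib* and *Map3k14*. Markers are named as a check, and *Tlr1* and *Mmp3* as called genes below background in both lines. Of the ligands, *Tnfsf12* was not matched on the array. *Otulin* was matched by its older symbol. Chromosomes and promoter windows are RefSeq's (GRCm38.p6), matched by symbol or by a synonym of 1 gene for 97.5% of genes. The background measure and the κB consensus were chosen after the data were seen. Alternatives were other normalizations, filters on dim genes, probe set means, variance models, the methods' t-test, fold thresholds, the replicate number as a block and leaving out each array.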

Additional observations from a re-analysis of the deposited data

How the results depend on the processing

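The result for the members turns on the fold limit. At the adjusted p alone 8 members were higher and 2 lower, beside 6454 and 5066 of all genes and 46 and 46 of the pathway lists. At 1.5-fold 4 members were higher (*Nfkb1*, *Nfkb2*, *Rel* and *Nfkbie*), beside 2245 and 2871 of all genes in the higher and lower direction and 20 and 26 of the pathway lists, with 1 member lower (*Ikbke*). At 4-fold 0 members were higher and 0 lower, beside 186 and 509 of all genes and 4 and 5 of the pathway lists. With the dimmest 50% of genes left out, 7 pathway genes were higher, against 13 in the main fit. This filter removes called genes that are dim, such as *Il1a*, *Tlr6* and *Tlr1*. Leaving out single arrays gave 0 to 2 members higher, with 0 without M0505 replicate 3 and without STOSE replicate 1. The call of *Ikbke* held in all 16 alternative fits. Over the 40 named genes 617 of 633 values kept their direction and side of the threshold, 16 lost the call and none was reversed. Replicate numbers paired the arrays only in part: deviations of same-numbered arrays correlated at r = 0.26, 0.04 and 0.25 across genes. For each M0505 array the same-numbered STOSE array correlated best. STOSE replicate 2, however, correlated best with M0505 replicate 3 (r = 0.12). The labels do not say whether same-numbered samples were prepared together. With the replicate block 1001 genes were higher and 1548 lower in all, and 2 members were higher and 1 lower, as without it. The adjusted p of *Rela* was 0.0585 with the block. The array number limits the precision, and dim genes near the olfactory receptor level have no reliable fold.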
